A study of Mus musculus with 8 samples.

Results

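The 39 genes considered here encode proteins of double-strand break and crosslink repair, and were taken from the files by gene symbol. Of these, 33 belong to homologous recombination, the Fanconi anaemia pathway and the kinases that signal damage, and 6 belong to non-homologous end joining. A row was found for 37 of them (31 and 6), out of 21991 genes with annotated exons, and Rad51c and Fance were not analysed here. All 37 passed the filter on low counts.

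They were followed in bulk RNA-seq of 2 fractions sorted from the bone marrow of C57BL/6 mice aged 8 to 10 weeks, with no treatment or genetic change given in the labels. Both fractions are labelled positive for CD150, Sca1 and c-Kit and negative for lineage markers. The CD34-negative fraction is called HSC, for hematopoietic stem cells. The CD34-positive one is called HPC, for hematopoietic progenitor cells, and each has 4 libraries. Nothing in the labels says whether the libraries of a fraction derive from different mice, so the p-values rest on a spread between libraries that could be purely technical.

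Homologous recombination repairs a broken DNA molecule by copying from the sister chromatid, and so works mainly in S and G2 phase. The break ends are first cut back to single strands, BRCA1, PALB2 and BRCA2 then act on the single strand, which is paired with its copy. The Fanconi pathway uses the same machinery where a crosslink blocks a replication fork. End joining instead seals the ends directly at any stage of the cell cycle, through the Ku dimer, DNA-PK and ligase IV, and stem cells that rarely divide are known to rely on it.

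Libraries held 16291733 to 20564901 exon reads, of which 81.5% to 85.5% were placed uniquely and 48.6% to 56.8% crossed an exon junction. Levels below are exon read counts scaled to library size and normalised between libraries (CPM). With 0 reads counted, up to 3 reads (0.146 to 0.184 CPM) remain possible, for counting error only. Cd34 was lower in HSC, as were Flt3 and Cd48, and 6 of 6 stem cell markers were higher. Slamf1, which encodes the CD150 that both labels name, is among those 6 and stood at 37.6 ± 6.02 CPM in HSC but at 3.14 ± 0.736 CPM in HPC. The HPC libraries thus held little RNA of a marker their label gives as positive, beside Flt3 at 744 ± 75.3 and Cd48 at 247 ± 40.0 CPM, against 20.9 ± 3.27 and 19.7 ± 3.75 CPM in HSC (SD, n = 4). Summed over 6 markers of mature neutrophils the range was 6.43 to 9.46 CPM for HSC and 4.40 to 16.8 CPM for HPC. The summed level of 6 red cell markers was 181 to 453 against 40.8 to 159 CPM, of 5 T and NK cell markers 28.4 to 41.7 against 13.8 to 21.0 CPM, and of 4 B cell markers 12.2 to 21.8 against 3.83 to 7.19 CPM. For 5 macrophage markers it was 14.4 to 25.1 against 37.4 to 55.8 CPM, with only Csf1r of these called lower in HSC, and for 6 stroma markers 10.2 to 25.5 against 1.49 to 8.88 CPM. At least 1 library held 0 reads of Alas2, Ltf, Lcn2, Pax5, Lepr, Col1a1, Pdgfra and Cdh5 each. The part of these cells in the repair gene changes was not tested.

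Repair genes were lower in HSC or did not pass the test, and 0 were higher. Of the 37 genes, 21 were lower at an edgeR adjusted p under 0.05, against 17.6% of all 12751 genes tested, while 19.6% of all genes were higher. The median log2 change of HSC over HPC was −0.51 for the 37 genes and 0.00 for all genes tested. Among the 31 genes of recombination, Fanconi repair and damage signalling, 19 were lower with a median of −0.60. In the end-joining group 2 of 6 were lower, with a median of −0.10, which ranged from −0.19 to −0.03 when 1 library was left out. The difference between these groups was not tested. On intron reads alone their medians were −0.67 for the 31 genes and −0.65 for the 5 end-joining genes tested, of which 3 were lower. The HSC libraries all lay below the HPC libraries for 20 of the 37 genes, against 17.2% of all genes tested, and all above for 0, against 19.5%. The 21 called genes spanned −2.06 to −0.31, and 8 of them were at least 2-fold lower. In bulk RNA, fewer cells that express a gene and less RNA per cell cannot be told apart.

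**Figure D1:**
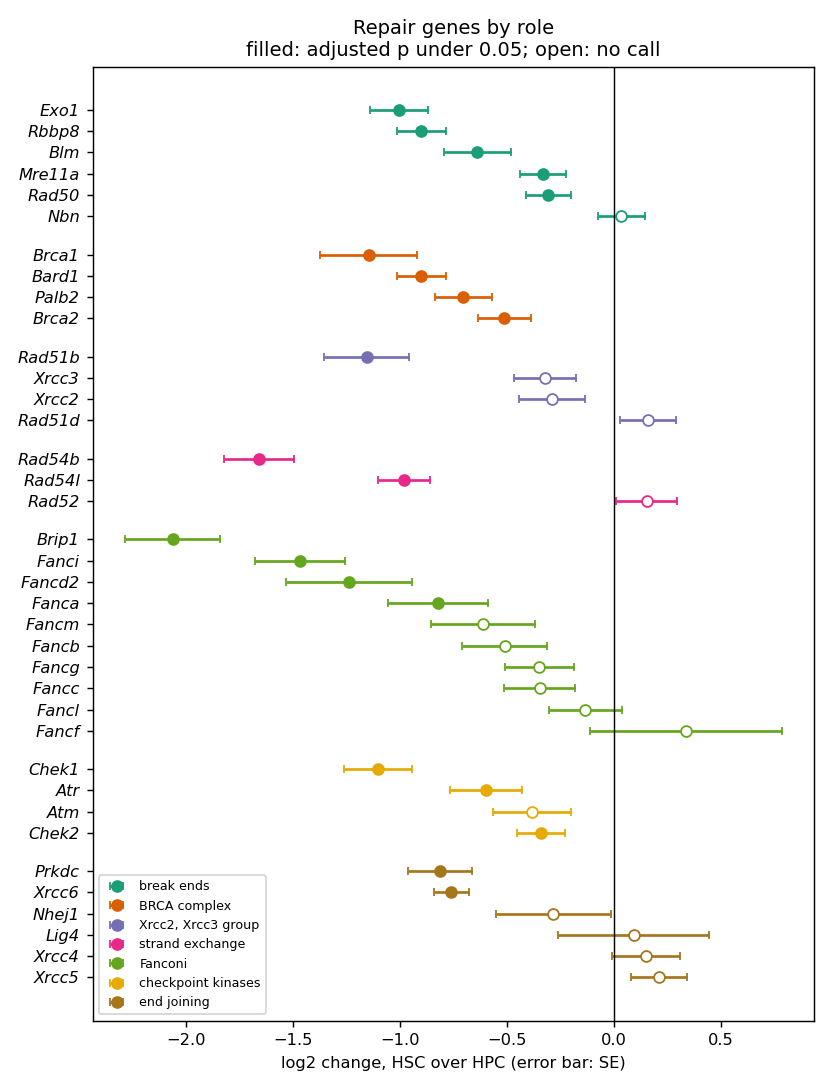
The x axis gives the log2 change of HSC over HPC with its standard error for each of the 37 repair genes, grouped by role on the y axis; filled points passed the edgeR test at an adjusted p under 0.05. Brip1 lies farthest left at −2.06, all 4 BRCA complex genes are filled, and in the end-joining group only Prkdc and Xrcc6 are.

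Promoter sequences were read for the genes that were lower and for those without a call. E2F factors bind promoters of S phase genes, NF-Y binds CCAAT boxes, and the CHR element is found in promoters of cell cycle genes. RefSeq (GRCm38.p6) gave a window from 250 bases before to 50 after the start for 28 of the 37 genes, as 31 entries. It gave none for Rad50, Nbn, Rbbp8, Exo1, Rad51d, Xrcc2, Rad54b, Fancd2 and Prkdc. The letters searched on both strands were TTCCCGC or TTGGCGC for E2F, TTTGAA or TTCGAA for CHR, and CCAAT. The 160 bases before the start are shown for 6 genes, with matches in capitals (GCGGGAA and ATTGG are TTCCCGC and CCAAT on the other strand). Brip1, Rad54l, Xrcc6 and Chek2 were lower in HSC, and Fancm and Rad52 had no call.
Brip1, chr11:86201194-86201353, minus strand: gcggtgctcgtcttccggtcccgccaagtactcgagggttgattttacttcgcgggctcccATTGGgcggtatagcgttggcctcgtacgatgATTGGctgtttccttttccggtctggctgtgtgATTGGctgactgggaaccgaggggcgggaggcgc
Rad54l, chr4:116123691-116123850, minus strand: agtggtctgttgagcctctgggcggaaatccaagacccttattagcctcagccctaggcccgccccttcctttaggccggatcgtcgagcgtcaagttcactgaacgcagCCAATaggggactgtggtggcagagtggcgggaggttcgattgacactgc
Xrcc6, chr15:82016209-82016368, plus strand: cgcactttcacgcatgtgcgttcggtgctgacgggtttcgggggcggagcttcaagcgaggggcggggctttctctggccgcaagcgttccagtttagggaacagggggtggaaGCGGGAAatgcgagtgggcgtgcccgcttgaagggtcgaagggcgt
Chek2, chr5:110839823-110839982, plus strand: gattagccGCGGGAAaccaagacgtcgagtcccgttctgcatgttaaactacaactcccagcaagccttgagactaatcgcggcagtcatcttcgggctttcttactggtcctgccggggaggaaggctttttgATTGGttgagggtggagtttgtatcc
Fancm, chr12:65075443-65075602, plus strand: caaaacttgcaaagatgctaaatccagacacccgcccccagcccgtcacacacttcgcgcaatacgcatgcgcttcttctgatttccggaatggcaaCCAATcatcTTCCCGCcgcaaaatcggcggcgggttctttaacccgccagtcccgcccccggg
Rad52, chr6:119902538-119902697, plus strand: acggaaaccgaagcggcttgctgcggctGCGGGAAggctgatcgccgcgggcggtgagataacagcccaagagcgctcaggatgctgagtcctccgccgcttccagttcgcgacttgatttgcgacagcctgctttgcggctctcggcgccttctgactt

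E2F letters stood in the window of 14 of the 28 repair genes and in that of 13.9% of the genes tested. They occurred in 7 of 15 genes that were lower in HSC and in 7 of 13 without a call. Rad52 and Fancm thus hold the same letters as Xrcc6 and Chek2. CCAAT stood in 10 of the 15 lower genes, in 7 of the 13 others and in 43.3% of the genes tested. It had 3 copies before Brip1, but also 3 before Fancf and 6 before Xrcc3, which both had no call. CHR letters were found in 3 of the 15 lower genes (Atr, Bard1 and Rad51b), in 0 of the 13 others and in 17.0% of the genes tested. By single entries, E2F letters occurred in 6.81%, CHR letters in 19.2% and CCAAT in 37.4% of all 32851 promoters of this length. In Fancf alone among the repair genes did matches of separate motifs overlap. A match describes the letters only.

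At the break ends, 5 of 6 genes were lower in HSC. Rbbp8 encodes CtIP, which starts the cutting back of ends (chromosome 18, 11633276 to 11743207, mm10). It stood at 31.0, 31.0, 32.3 and 26.6 CPM in HSC replicates 1 to 4, and at 58.3, 61.6, 53.1 and 52.8 CPM in HPC. The fractions lay fully apart, and the log2 change was −0.90 ± 0.12 (SE; edgeR adjusted p = 2.4e-05). Exo1, the exonuclease that extends the cut (chromosome 1, 175880760 to 175911396), was at 20.9, 22.8, 24.9 and 25.4 CPM in HSC. In HPC it reached 56.4, 47.8, 41.3 and 43.2 CPM, 2.01-fold more on average (log2 −1.004 ± 0.13, edgeR adjusted p = 3.4e-05). Blm, the Bloom helicase, which works beside EXO1, fell by 0.64 on the log2 scale.

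In the MRE11 complex, which detects the broken end, 2 of 3 genes were called, with small changes. Mre11a stood at 58.7 ± 5.15 CPM against 73.9 ± 6.23 CPM (HSC first; SD, n = 4 each; log2 −0.33), and Rad50 at 109 ± 4.54 against 134 ± 18.2 CPM (log2 −0.31). Both calls were near the threshold, with edgeR adjusted p of 0.024 and 0.033. Mre11a lost its call without HPC replicate 3 or HSC replicate 2 or 4 (edgeR adjusted p up to 0.073), and Rad50 without HPC replicate 1, 2 or 3 or HSC replicate 2, 3 or 4 (up to 0.082). Both calls also ended under upper quartile scaling (edgeR adjusted p = 0.080 for Mre11a and 0.10 for Rad50). Nbn, the third subunit, had no call at 67.1 ± 4.62 against 65.6 ± 7.40 CPM.

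All 4 genes of the BRCA complex were lower in HSC, with a median log2 change of −0.80. Bard1, the partner that BRCA1 needs to act as a ubiquitin ligase (chromosome 1, 71027531 to 71103156), was at 60.8, 62.7, 72.9 and 75.2 CPM in HSC. In the HPC libraries it was at 119, 149, 112 and 127 CPM, so that no value overlapped (log2 −0.90 ± 0.11, edgeR adjusted p = 1.9e-05). Only 139 of its 14646 exon reads crossed an exon junction. On those reads alone its change was −0.97 ± 0.63 and had no call (edgeR adjusted p = 0.28), so the level of spliced Bard1 transcript is uncertain here.

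Palb2, the bridge between BRCA1 and BRCA2 (chromosome 7, 122107262 to 122132980), was at 24.7, 23.4, 19.6 and 20.1 CPM in HSC and at 32.4, 39.3, 33.2 and 38.1 CPM in HPC. Every HSC library was below every HPC library (log2 −0.70 ± 0.13, edgeR adjusted p = 7.7e-04). Brca1 itself was more variable, at 13.2 ± 4.21 against 29.2 ± 6.61 CPM (log2 −1.15 ± 0.23, edgeR adjusted p = 0.0011). Brca2, which acts on the single strand, changed least of the 4 by its estimate, at 31.6 ± 2.90 against 45.1 ± 4.52 CPM (log2 −0.51 ± 0.12).

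In the group of Rad51b, Rad51d, Xrcc2 and Xrcc3 (the Xrcc2 and Xrcc3 group), which help strand pairing, only Rad51b passed the test. Rad51b (chromosome 12, 79297282 to 79848260) was at 5.54, 8.73, 7.44 and 8.70 CPM in HSC and at 18.8, 15.4, 19.6 and 14.1 CPM in HPC. The fractions lay apart, with a log2 change of −1.16 ± 0.20 (edgeR adjusted p = 3.5e-04). Xrcc3 (chromosome 12, 111803192 to 111813879) was at 27.5, 27.9, 28.3 and 38.5 CPM in HSC and at 41.7, 32.2, 39.7 and 39.4 CPM in HPC, where HSC replicate 4 fell among the HPC values. Its change of −0.32 ± 0.14 had no call (edgeR adjusted p = 0.094) and gained it without HSC replicate 4 (−0.46, edgeR adjusted p = 0.015). Only 40.8% of the Xrcc3 reads were unique, and the gene overlaps Klc1 on the opposite strand. Xrcc2 (log2 −0.29 ± 0.15) and Rad51d (0.16 ± 0.13) had no call.

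Of the genes of strand exchange, both RAD54 translocases were lower in HSC. Rad54b (chromosome 4, 11558920 to 11615808) was at 9.84, 8.63, 7.34 and 9.18 CPM in HSC and at 25.8, 28.0, 32.99 and 23.6 CPM in HPC, a wide gap with no overlap. Its log2 change was −1.66 ± 0.16 (edgeR adjusted p = 1.9e-06), and −1.72 on unique reads. Rad54b overlaps Fsbp on the same strand, and counting unique reads may not remove reads shared with it. Rad54l (chromosome 4, 116094261 to 116123690) was at 44.7, 50.2, 49.4 and 61.5 CPM against 118, 101, 93.5 and 93.6 CPM. It thus stood 1.97-fold higher in HPC (log2 −0.98 ± 0.12, edgeR adjusted p = 1.5e-05). Rad52, an annealing protein, had no call at 42.7 ± 4.16 in HSC and 38.5 ± 6.68 CPM in HPC.

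**Figure D2:**
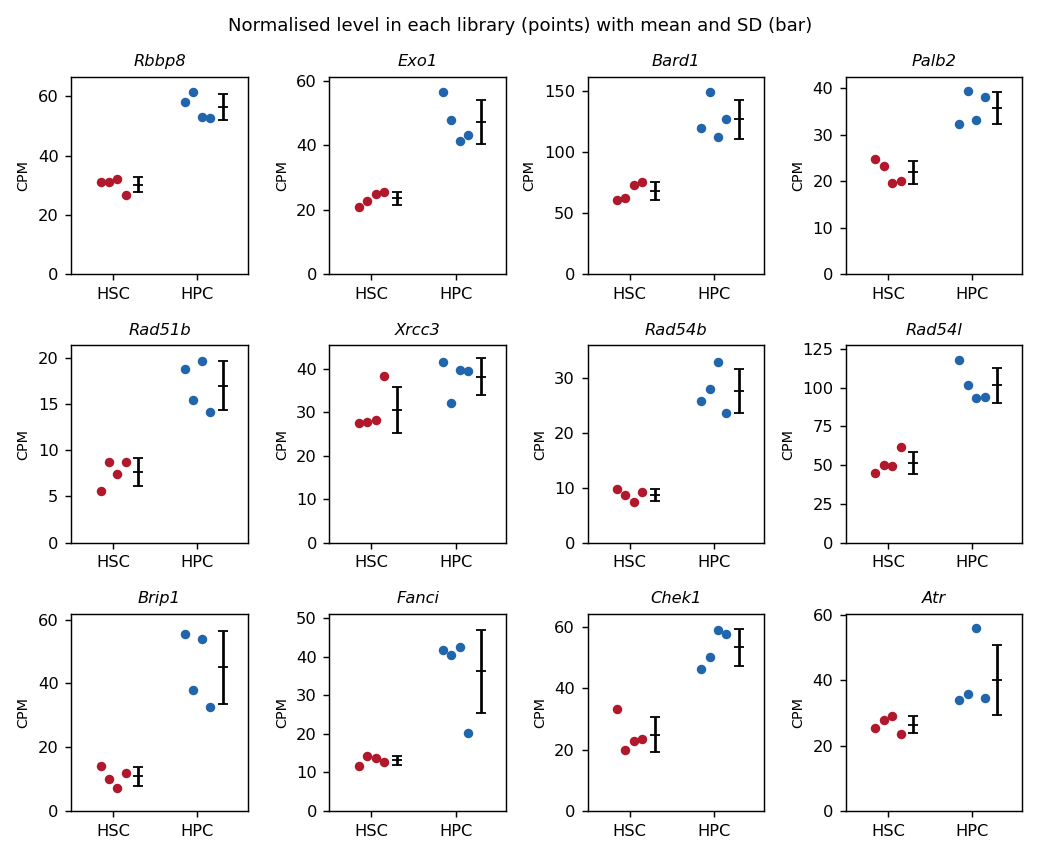
Each panel gives the normalised level in CPM (y axis, from 0) of 1 gene in the 4 HSC and 4 HPC libraries (points), with the mean and SD beside them. HSC points lie below all HPC points in every panel except that of Xrcc3, where HSC replicate 4 reaches 38.5 CPM.

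Of the Fanconi genes 4 of 10 were lower in HSC and 0 higher, with a median log2 change of −0.56. Brip1 and the FANCI-FANCD2 clamp, which act at the crosslink, were lower in HSC. Of the 7 measured genes of the upstream core complex 1 was lower, and the difference between these parts of the pathway was not tested. Brip1 encodes the helicase FANCJ, which binds BRCA1 (chromosome 11, 86058131 to 86201267). It was at 14.1, 10.0, 7.19 and 12.0 CPM in HSC and at 55.6, 38.0, 54.0 and 32.7 CPM in HPC. With 4.16-fold more in HPC, it had the largest change of the 37 genes (log2 −2.06 ± 0.22, edgeR adjusted p = 4.1e-06). Fanci (chromosome 7, 79392312 to 79450265) was at 11.6, 14.4, 13.7 and 12.8 CPM in HSC and at 41.9, 40.4, 42.7 and 20.2 CPM in HPC. HPC replicate 4 was the low value of its group and still above HSC (log2 −1.47 ± 0.21, edgeR adjusted p = 6.4e-05). Fancd2 was at 11.5 ± 4.56 against 27.1 ± 9.99 CPM (log2 −1.24 ± 0.29, edgeR adjusted p = 0.0039). It overlaps LOC108169161 on the same strand and Fancd2os on the opposite strand, whose reads cannot be told apart from its own.

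In the core complex, which attaches ubiquitin to the clamp, Fanca alone was called. Its level was 13.5 ± 0.702 CPM in HSC against 23.9 ± 10.4 CPM (log2 −0.82 ± 0.23, edgeR adjusted p = 0.012). HPC replicate 1 held 39.5 CPM, and without it the change was −0.48 (edgeR adjusted p = 0.030). Fancl, the ubiquitin ligase, had no call at 22.1 ± 2.70 against 24.2 ± 5.69 CPM. Fancf, an adaptor with 1 exon, ranged from 5.94 to 13.5 CPM in HSC and from 2.27 to 14.97 CPM in HPC. The remaining 4, Fancm (−0.61), Fancb (−0.51), Fancg (−0.35) and Fancc (−0.35), had negative estimates without a call. Each gained a call in at least 1 fit that left out a library: Fancm without HPC replicate 2 or HSC replicate 1 (edgeR adjusted p = 0.023 and 0.022), Fancb without HPC replicate 2 (0.022), Fancg without HSC replicate 3 (0.018) and Fancc without HPC replicate 4 (0.028).

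Damage kinases were lower in HSC for 3 of 4. Chek1 encodes CHK1, which restrains replication when forks stall (chromosome 9, 36708482 to 36726658). It was at 33.1, 19.9, 22.9 and 23.5 CPM in HSC and at 46.5, 50.2, 59.0 and 57.7 CPM in HPC. All HPC values were higher (log2 −1.10 ± 0.16, edgeR adjusted p = 6.8e-05). Atr, the kinase that activates CHK1 (chromosome 9, 95857597 to 95953217), was at 25.5, 27.9, 28.9 and 23.5 CPM against 34.1, 35.8, 55.9 and 34.5 CPM. HPC replicate 3 stood above the other HPC libraries, and the change was −0.60 ± 0.17 (edgeR adjusted p = 0.011). Chek2 was at 40.3 to 46.8 CPM in HSC and 50.7 to 61.7 CPM in HPC, 43.5 against 55.2 CPM on average (log2 −0.34, edgeR adjusted p = 0.027). Its call ended without HPC replicate 2 or 3 or HSC replicate 3 or 4 (edgeR adjusted p up to 0.073) and under upper quartile scaling (0.085). Atm, the kinase called to breaks by the MRE11 complex, had no call at 34.9 ± 5.52 against 45.6 ± 13.1 CPM (log2 −0.38 ± 0.18).

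On exon reads Xrcc6 and Prkdc were the 2 of 6 end-joining genes that were lower in HSC. Xrcc6 encodes Ku70, which with Ku80 rings the broken end (chromosome 15, 81987825 to 82040085). It stood at 110, 108, 118 and 118 CPM in HSC and at 198, 186, 196 and 188 CPM in HPC, with tight groups far apart (log2 −0.76 ± 0.08, edgeR adjusted p = 4.4e-06). Prkdc, the catalytic subunit of DNA-PK (chromosome 16, 15637443 to 15842252), was at 11.0, 12.8, 11.0 and 10.8 CPM against 21.4, 19.9, 18.3 and 20.6 CPM. The groups did not overlap (log2 −0.81 ± 0.15, edgeR adjusted p = 5.6e-04).

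The other 4 end-joining genes overlapped between fractions. Xrcc5, which encodes Ku80 (chromosome 1, 72307417 to 72394953), was at 49.5, 41.3, 34.4 and 43.5 CPM in HSC and at 32.1, 38.0, 38.0 and 37.9 CPM in HPC (log2 0.21 ± 0.13, edgeR adjusted p = 0.24). Xrcc4, the scaffold of ligase IV (chromosome 13, 89848914 to 90089608), was at 20.5, 19.8, 17.3 and 17.4 CPM against 13.5, 16.6, 19.6 and 17.8 CPM (log2 0.15 ± 0.16). Neither showed a difference beyond the spread between libraries. Nhej1, which encodes XLF (chromosome 1, 74967346 to 75125226), was at 6.86, 4.50, 3.82 and 4.43 CPM against 5.13, 5.66, 6.35 and 6.68 CPM (log2 −0.28 ± 0.27). Lig4, the ligase itself (chromosome 8, 9970020 to 9977681), was at 2.68, 3.87, 3.87 and 4.01 CPM against 4.23, 2.63, 2.01 and 4.70 CPM (log2 0.09 ± 0.35). On intron reads Nhej1 was lower in HSC (log2 −0.85 ± 0.27, edgeR adjusted p = 0.038), beside Xrcc6 and Prkdc. Lig4 and Nhej1 had the fewest exon reads of the 37 genes, Lig4 with 36 to 85 a library and Nhej1 with 76 to 121.

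**Figure D3:**
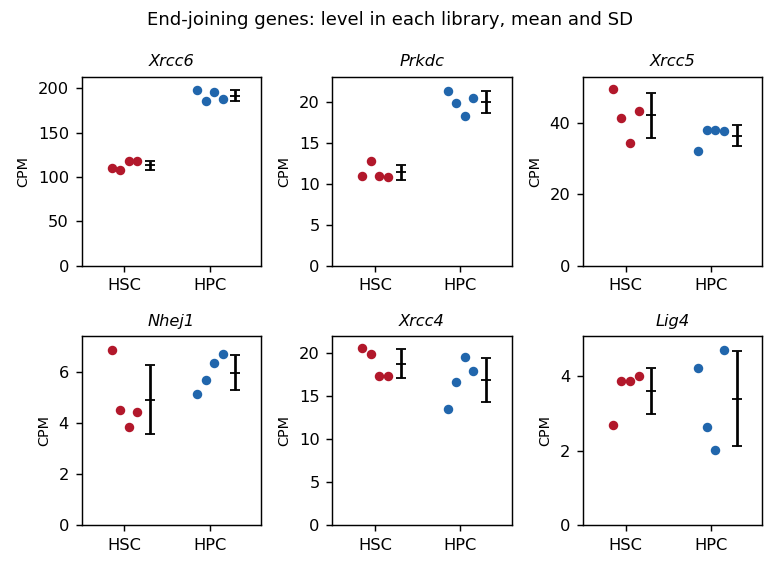
Each panel gives the level in CPM (y axis, from 0) of 1 end-joining gene in the 4 HSC and 4 HPC libraries (points), with the mean and SD. Xrcc6 and Prkdc separate the fractions, while Xrcc5, Nhej1, Xrcc4 and Lig4 overlap.

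Partner proteins were compared by the ratio of their deposited TPM, which accounts for transcript length, in 11 pairs chosen with the changes above known. The ratio of Xrcc6 to Xrcc5, whose products form the Ku dimer, was 2.26, 2.67, 3.50 and 2.77 in HSC and 6.31, 5.01, 5.27 and 5.07 in HPC. The fractions did not overlap (two-sided exact permutation p = 0.029, the smallest that 4 against 4 libraries allow; 0.16 adjusted over the 11 pairs). Xrcc2 to Rad51d, neighbours in a complex, also lay apart, at 1.14 ± 0.229 in HSC and 1.55 ± 0.117 in HPC (exact p = 0.029, adjusted 0.16). Rad54b to Rad54l was 0.141 ± 0.0274 against 0.225 ± 0.0464 (exact p = 0.057, adjusted 0.16), and Chek1 to Atr 2.35 ± 0.649 against 3.38 ± 0.624 (exact p = 0.057, adjusted 0.16). The other 7 ratios overlapped too, among them Brca1 to Bard1 (0.165 ± 0.0498 against 0.198 ± 0.0550) and Fancd2 to Fanci (0.846 ± 0.325 against 0.736 ± 0.199; SD, n = 4 each). The Bard1 level in its ratio rests on exon reads of which 0.949% crossed an exon junction. No pair passed an adjusted p of 0.05, which this design could reach only if more pairs lay apart.

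Per transcript length, Xrcc6 was the most abundant of the 37 genes in both fractions, at 80.5 ± 6.74 TPM in HSC and 131 ± 10.1 TPM in HPC (SD, n = 4). In HSC it was followed by Nbn (46.9 ± 0.490 TPM), Rad50 (42.4 ± 2.82), Chek2 (31.2 ± 3.46) and Xrcc5 (29.2 ± 3.36), the last 2 within their spread. In HPC, Rad50 (50.7 ± 9.29 TPM), Nbn (44.0 ± 2.77), Bard1 (43.4 ± 5.76) and Chek2 (37.9 ± 5.11) came next and overlapped in their SDs. The place of Bard1 is uncertain, as only 0.949% of its exon reads crossed an exon junction. At the low end were Rad51b (1.82 ± 0.365 TPM), Lig4 (1.71 ± 0.330) and Prkdc (1.64 ± 0.205) in HSC. Rad51b (3.91 ± 0.782 TPM), Prkdc (2.76 ± 0.194) and Lig4 (1.53 ± 0.520) were lowest in HPC.

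Intron reads gave a second readout of the same libraries. On intron reads alone 18 of 36 repair genes tested were lower in HSC, against 10.0% of all genes, and 0 were higher, against 11.0%. On exon-exon reads alone 17 of 35 were lower (14.9% of all genes) and 0 higher (16.1%). The changes of Rad51b and Brca1 were −1.40 ± 0.12 and −1.42 ± 0.19 in intron reads. Rbbp8 and Atr, both lower in exon reads, stood at −0.10 ± 0.14 and 0.01 ± 0.14 in intron reads. With both readouts fitted together, the intron change of Rbbp8 was above its exon change by 0.80 ± 0.19 (log2; edgeR adjusted p = 0.040). This was the only 1 of the 36 genes to pass, where 0.698% of 11458 genes passed in that direction and 1.06% in the other. Atr (0.61 ± 0.17, edgeR adjusted p = 0.11) and Brip1 (0.68 ± 0.20, edgeR adjusted p = 0.13) did not. Atr overlaps 1700065D16Rik and Gm16794 on the opposite strand, whose reads cannot be told apart from its own.

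**Figure D4:**
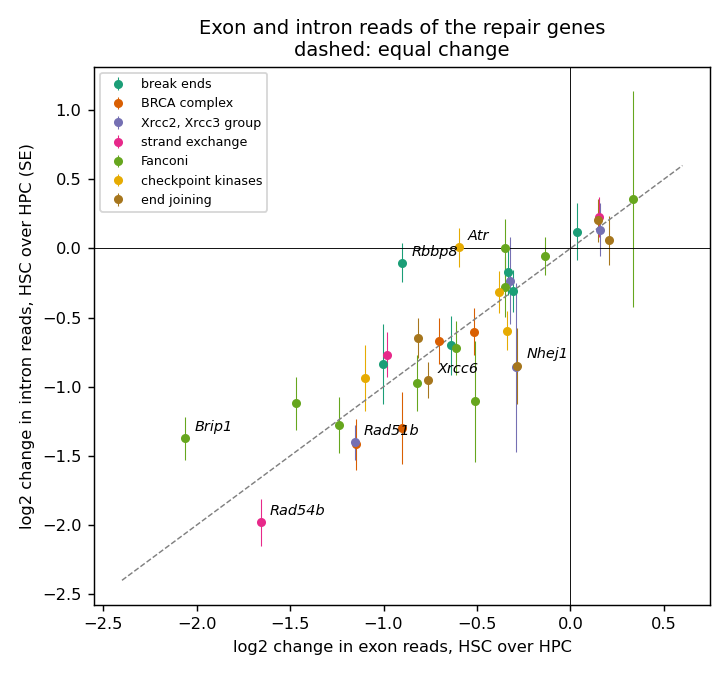
The log2 change of HSC over HPC in intron reads (y axis, with its standard error) is set against that in exon reads (x axis) for the 36 repair genes with both, coloured by role; the dashed line marks equal change. Rbbp8, Atr and Brip1 lie above the line, Rbbp8 by 0.80.

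Other genes of the same pathways, from lists of 54 genes with a row, were lower in HSC for 21 and higher for 2, with a median log2 change of −0.25. Of all genes tested 17.6% were lower and 19.6% higher. In recombination 11 of 22 were lower and 0 higher. Among them Mcm8, a helicase of recombination, was at 15.3 ± 1.81 against 30.8 ± 3.16 CPM. Of 8 further Fanconi genes 2 were lower (25%) and 1 higher (12.5%), not far from the shares of all genes. Usp1, which removes ubiquitin from the clamp, was at 118 ± 8.25 against 190 ± 10.5 CPM, Ube2t, which attaches it, at 34.5 ± 7.27 against 51.0 ± 4.15 CPM, and the core subunit Faap20 at 61.7 ± 8.46 against 49.5 ± 1.27 CPM (log2 0.32 ± 0.11, edgeR adjusted p = 0.042).

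Among 15 break signalling genes 5 were lower and 0 higher, against 17.6% and 19.6% of all genes tested. H2afx, the histone that marks breaks, was at 141 ± 13.6 against 320 ± 22.8 CPM (log2 −1.19 ± 0.10), and Topbp1, which activates ATR, at 74.7 ± 8.14 against 143 ± 12.5 CPM. For 9 further end-joining genes, those of the alternative pathway included, 3 were lower and 1 was higher. Parp1 was at 181 ± 9.62 against 271 ± 23.8 CPM, and the gap-filling polymerase gene Poll at 30.5 ± 0.606 against 39.8 ± 5.02 CPM. Its relative Polm went the other way, at 6.87 ± 0.843 CPM in HSC against 1.77 ± 0.753 CPM (log2 1.95 ± 0.33, edgeR adjusted p = 3.2e-04).

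Most cell cycle genes were also lower in HSC, against 17.6% of all genes tested. Of 29 S phase genes 27 were lower in HSC and 1, Ccne1, was higher (log2 1.68 ± 0.17), with a median of −0.74. Hells and Uhrf1 fell by 1.27 and 1.31 on the log2 scale. All 29 G2 and M phase genes were lower, with a median of −1.29, among them Nusap1 (−1.57) and Ect2 (−1.94). Of the 37 repair genes, 14 had a change below the S phase median and 3 below the G2 and M median. Summed over genes, the level in HPC was 1.48 times that in HSC for the 31 recombination, Fanconi and signalling genes and 1.42 times for the 6 end-joining genes. The same ratio was 1.67 for the S phase and 2.42 for the G2 and M genes.

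Set against the summed S phase level of its own library, the summed level of the 31 genes was 0.243, 0.257, 0.274 and 0.231 in HSC and 0.215, 0.223, 0.251 and 0.203 in HPC. These ranges overlap. The Fanconi sum relative to S phase was 0.0425 ± 0.00236 in HSC and 0.0426 ± 0.00573 in HPC, and the BRCA complex sum 0.0344 ± 0.00316 against 0.0362 ± 0.00337 (SD, n = 4). The ratio of the 31-gene sum to the end-joining sum was 4.91, 5.13, 5.31 and 4.94 in HSC and 5.51, 5.35, 5.52 and 4.84 in HPC, also overlapping. Xrcc6 makes up most of the end-joining sum. Bard1 holds 67.9 of the mean 135 CPM of the BRCA complex sum in HSC, and 127 of 237 CPM in HPC. Its level rests on exon reads of which 0.949% crossed an exon junction. The part of cell division in the repair gene changes was not tested.

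**Figure D5:**
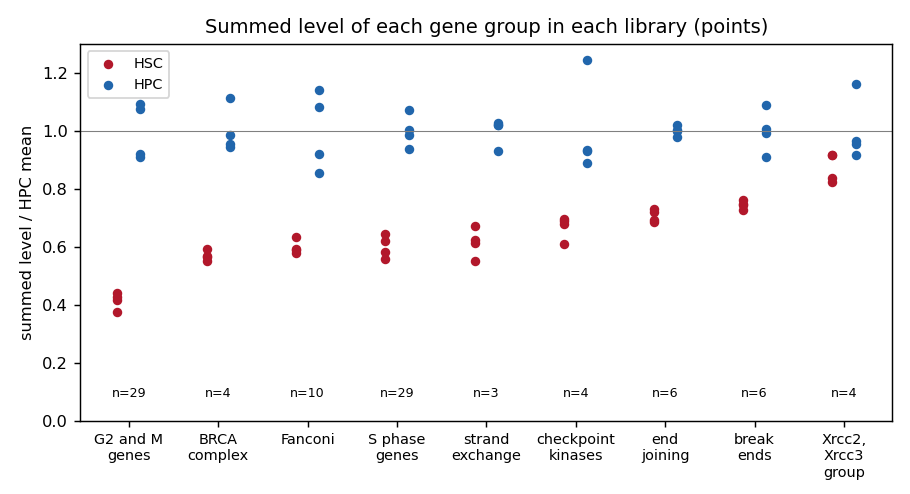
Points give the summed CPM of each gene group in each library, divided by the HPC mean of that group (y axis, from 0), with the number of genes (n) under each. HSC points lie below the HPC points in each group shown, nearest to them for the Xrcc2 and Xrcc3 group and farthest for the G2 and M genes.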

How the data were processed

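Per the labels' protocols, RNA from sorted cells was extracted with ISOGEN (the text, given for all libraries, states 5000 HSC and no number of HPC), converted with the SMARTer Pico kit, amplified by 18 PCR cycles and made into Nextera XT libraries. The submitters' processing notes name mm10. The aligner, the counter and the strand setting were not given in the sources used here, so reads of overlapping genes cannot be told apart. Besides the overlaps named above, Fanca overlaps Zfp276, Fanci overlaps Polg and Xrcc6 overlaps Desi1 on the opposite strand, among others. The deposited counts are whole reads per row, per the file headers. The deposited TPM and RPKM were computed by the authors per exon length; RPKM was not used here.

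Total exon read counts were summed per gene ID, kept by filterByExpr, scaled by TMM and tested with edgeR 4.0.16 (R 4.3.3, quasi-likelihood F test, no covariate, Benjamini-Hochberg over 12751 genes, threshold 0.05). Standard errors were derived as log2 change over root F. Intron and exon reads were compared in 1 edgeR fit with a term for each library. On simulated counts the test for HSC over HPC found 44 of 100 simulated 1.5-fold changes and 88 of 100 simulated 2-fold changes (12624 genes, 6 false calls of 138). For the intron fit it was 108 of 200 changed 2-fold (11356 genes, 5 false of 113). In the simulation for HSC over HPC far fewer genes changed than were called in the data (17.6% lower and 19.6% higher). The shares it found may thus differ from those of the real test. No 2 libraries of a fraction looked like 1 deposited again (mean chi-square per gene 11.6 to 38.7).

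The repair genes, lists and tests were chosen with earlier results of these data known. Values in each library are given for the 2 genes of each role with the smallest adjusted p and for all end-joining genes; other repair genes by mean or estimate, and from each pathway and cycle list up to 2 called genes a direction, of which 1 is not reported here. Alternatives were other scalings and filters, a replicate block, DESeq2 1.42.0, voom of limma 3.58.1, other thresholds, other read classes, a covariate for the share of exon-exon reads, and leaving out libraries. Fits on intron and exon-exon reads, the intron test and the partner ratios were added after seeing the data.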

Additional observations from a re-analysis of the deposited data

Results flagged for a closer look

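In 9 of 74 groups of 4 libraries (37 genes in 2 fractions), 1 library stood apart from the other 3 by most of the range of the group; chance flags about 1 in 20. HPC replicate 3 was the highest of its group for Atm at 65.2 CPM (others 37.7 to 40.5), for Atr at 55.9 CPM (others 34.1 to 35.8) and for Rad51d at 59.8 CPM (others 44.0 to 46.1). HPC replicate 1 was the highest for Fanca at 39.5 CPM (others 17.6 to 19.7) and the lowest for Xrcc5 at 32.1 CPM (others 37.9 to 38.0). HPC replicate 4 was the lowest for Fanci at 20.2 CPM (others 40.4 to 42.7). In HSC, replicate 4 was the highest for Xrcc3 at 38.5 CPM (others 27.5 to 28.3), replicate 2 the highest for Prkdc at 12.8 CPM (others 10.8 to 11.0) and replicate 1 the lowest for Lig4 at 2.68 CPM (others 3.87 to 4.01).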

How the results depend on the processing

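Without 1 library at a time, 18 to 22 of the repair genes were lower, 16 to 20 of them outside end joining, with 2 end-joining genes and 0 higher each time. With a fold of 1.5 tested, 12 were lower (11 and 1; all genes 803 lower, 1296 higher). The end-joining median was 0.018 without both libraries numbered 4, −0.65 on intron reads (all genes 1274 lower, 1393 higher) and −0.36 on exon-exon reads. Signs turned, without a call, for Fancl without both libraries numbered 4 (0.044), for Fancc (0.0067) and Atr (0.010) on intron reads, and between fits leaving out 1 library for Nbn (−0.038 to 0.10), Fancl (−0.23 to 0.027) and Lig4 (−0.10 to 0.28); the cause was not tested. Upper quartile scaling moved the median of all genes by 0.08. Same-numbered libraries did not deviate together throughout (r across genes 0.02, −0.19, 0.25 and 0.47; 2 of 4 HSC and 1 of 4 HPC libraries correlated best with their own number), so the numbers were not taken as pairs; with the replicate block 22 repair genes were lower, Atm gaining a call (edgeR adjusted p = 0.039). Depth limits Lig4 and Nhej1 most.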

Other observations

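Bard1 differed from the other repair genes in how its reads lay on the gene, a pattern singled out after its values were seen. It is annotated with 15 exons, yet 0.949% of its 14646 exon reads crossed an exon junction, 0.942% in HSC and 0.953% in HPC. Among 6688 tested genes with at least 10 exons and 1000 exon reads, the median share was 50.4%, and 0.150% of them had a lower share than Bard1. Other repair genes with many exons ranged from Palb2 at 27.5% to Fanca at 93.8%. Where on Bard1 the reads lie cannot be read from counts per gene.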
